A study of Mus musculus with 28 samples.

Results

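The genes described here are 9 genes of red cell formation: the embryonic globins Hbb-y, Hbb-bh1 and Hba-x, together with Alas2, Slc4a1, Klf1, Epor, Car2 and Blvrb. They were chosen by name from a count table of 24015 genes, and all 9 were among the 15238 genes that passed the filter on low counts. RNA was measured in 28 libraries of 100 cells sorted from mouse embryos, in 9 populations along the path by which endothelium of the aorta region gives rise to blood. At E8.5 these were hemogenic endothelium (HE, 4 libraries), the endothelium that produces blood cells, and other endothelial cells (EC). The E9.5 populations were pro-HSC/HPC, HE and EC, and those of E10.5 were pre-HSC II, pre-HSC I, HE and EC, where HSC means hematopoietic stem cell and HPC hematopoietic progenitor cell. Every population other than E8.5 HE had 3 libraries. All groups came from embryos of 1 genotype, labelled 23GFP transgenic, whose promoter the labels do not name. The labels give the tissue of the E10.5 samples as AGM+VU and that of the earlier days as PAS+VU, and they do not describe the sort gates. In any comparison of E10.5 with an earlier day, day and tissue cannot be told apart. The series calls its replicates biological, but no label says that they came from separate litters, so p-values measure the spread between these libraries, which may be technical.

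The first red cells of the mouse arise in the yolk sac as a primitive wave. They circulate as nucleated cells and carry hemoglobins built from the embryonic chains. Hba-x encodes the alpha-like zeta chain, and Hbb-y and Hbb-bh1 encode beta-like chains that are silenced as adult hemoglobin takes over. Alas2 makes the committed step of heme synthesis in erythroid cells, Slc4a1 is the anion exchanger of the red cell membrane (band 3), Klf1 is the erythroid factor that activates these genes, and Epor is the receptor for erythropoietin. Car2 and Blvrb encode cytosolic enzymes, a carbonic anhydrase and a biliverdin reductase, which are abundant in red cells and also made in other cells.

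Totals ran from 16308918 to 31405603 counts per library, with 13935 to 16050 genes detected. Levels are given as CPM, counts scaled to a common library total, with library sizes adjusted by TMM factors. The endothelial markers Cdh5, Pecam1, Kdr, Tek, Emcn and Tie1 all had counts in every population, with a summed level of 269 to 343 CPM in pre-HSC II and 2842 to 2916 CPM in E10.5 HE. The summed level of 6 markers of emerging blood (Runx1, Spn, Ptprc, Itga2b, Kit and Gfi1) was 392 to 474 CPM in the pro-HSC/HPC libraries, 404 to 756 CPM in those of pre-HSC I and 574 to 922 CPM in those of pre-HSC II. It was 37.2 to 207 CPM in the HE and EC populations. At E8.5 it did not separate HE from EC, with 106 to 145 CPM in HE and 101 to 207 CPM in EC. Runx1 alone overlapped there too, with 1.03 to 3.45 CPM in HE and 1.25 to 5.14 CPM in EC. In E9.5 HE Runx1 had 30.8 to 37.4 CPM, against 3.12 to 3.76 CPM in E9.5 EC. The endothelial sum was 1216 to 2193 CPM in E8.5 HE, above the 812.5 to 1112 CPM of E8.5 EC. The names HE and EC were taken from the labels. A total of 3 libraries stood apart in embryonic globin counts. These were pro-HSC/HPC replicates 2 and 3, where Hbb-y, Hbb-bh1 and Hba-x together took 1.11% and 0.422% of all counts, and pre-HSC I replicate 3, where they took 0.172%. The other E9.5 and E10.5 libraries held 27 to 503 such counts, and the main results that rest on the 3 rich libraries are also given without them.

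Promoter sequences are shown for 2 embryonic globins, Alas2 and Klf1, since Hbb-y, Hba-x and Alas2 were highest in the same 3 libraries and Klf1 encodes a factor known to bind CACCC boxes. The RefSeq table (GRCm38.p6) held a promoter for 6 of the 9 genes, with none for Hbb-bh1, Slc4a1 and Car2. The 150 bases before the start are printed for Hbb-y (chr7:103853208-103853357, minus strand), Hba-x (chr11:32276450-32276599, plus strand), Alas2 (chrX:150547267-150547416, plus strand) and Klf1 (chr8:84901832-84901981, plus strand), in the direction of transcription. Capitals mark matches, on either strand, to 6 motifs. The letters AGATAA stand for a GATA site, and so do the letters TGATAA. The letters CCACCC stand for a CACCC box and CCAAT for a CCAAT box. The letters ATAAAA stand for a TATA box, as do the letters TATAAA.
Hbb-y: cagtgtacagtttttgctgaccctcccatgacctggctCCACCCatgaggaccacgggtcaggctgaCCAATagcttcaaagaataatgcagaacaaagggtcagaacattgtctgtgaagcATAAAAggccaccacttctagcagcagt
Hba-x: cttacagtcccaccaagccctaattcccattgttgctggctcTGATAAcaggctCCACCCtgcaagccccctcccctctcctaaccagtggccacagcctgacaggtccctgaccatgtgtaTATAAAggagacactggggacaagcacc
Alas2: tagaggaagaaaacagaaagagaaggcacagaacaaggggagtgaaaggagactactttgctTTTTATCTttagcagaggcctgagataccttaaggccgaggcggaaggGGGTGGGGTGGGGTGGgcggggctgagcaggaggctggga
Klf1: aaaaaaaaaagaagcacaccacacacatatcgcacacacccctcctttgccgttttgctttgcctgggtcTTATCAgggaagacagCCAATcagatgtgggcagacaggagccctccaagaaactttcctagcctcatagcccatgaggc
Hbb-y held CCACCC at 112 to 107 bases, CCAAT at 83 to 79 bases and ATAAAA at 28 to 23 bases before its start. Hba-x held TGATAA at 108 to 103 bases, CCACCC at 96 to 91 bases and TATAAA at 28 to 23 bases before its start. In Alas2, 3 overlapping matches to CCACCC lay on the minus strand between 40 and 25 bases before the start, and AGATAA on that strand at 86 to 81 bases overlapped ATAAAA at 88 to 83 bases. Klf1 held TGATAA on the minus strand at 80 to 75 bases and CCAAT at 64 to 60 bases before its start. Over the full 250 bases searched, Hbb-y also held TGATAA at 162 to 157 bases and Alas2 held TATAAA at 209 to 204 bases, both on the minus strand. Such short motifs are common: among 32851 promoters searched over the same length, 28.1% held CCACCC and 33.8% held CCAAT. The share was 9.99% for AGATAA and 7.94% for TGATAA, and it was 17.0% for ATAAAA and 12.4% for TATAAA. The promoters not shown held matches too. Epor held AGATAA on the minus strand at 54 to 49 bases, and CCACCC at 151 to 146 and at 122 to 117 bases before its start. Blvrb held CCACCC in each of its promoters. A match is only a match of letters.

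The embryonic beta-like globin Hbb-y (mm9 chr7:111000268-111001721, minus strand, 3 exons) was near 0 at E8.5, low at E9.5 and E10.5, and high in 3 libraries of the blood-forming populations. It had 5.50, 5152 and 1521 CPM in the 3 pro-HSC/HPC libraries, against 9.92, 2.01 and 1.27 CPM in E9.5 HE. In pre-HSC I it had 11.9, 5.14 and 814 CPM, against 2.66, 8.01 and 7.72 CPM in E10.5 HE. Pro-HSC/HPC replicate 1 lay within the range of E9.5 HE, and the groups overlap in both comparisons. Pre-HSC II held 7.08, 4.07 and 8.09 CPM. Fewer red cells among the sorted cells and less globin RNA in each cell cannot be told apart in libraries of this kind.

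Hbb-bh1 (mm9 chr7:110990152-110991676, minus strand, 3 exons), the neighbouring embryonic beta-like globin, had 0.562, 3025 and 1208 CPM in pro-HSC/HPC, against 3.02, 0.916 and 3.05 CPM in E9.5 HE. In pre-HSC I it had 1.57, 2.19 and 244 CPM, against 1.12, 1.23 and 2.81 CPM in E10.5 HE. Hba-x (mm9 chr11:32176600-32178115, plus strand, 3 exons), the alpha-like chain that pairs with them, had 0.861, 3860 and 1287 CPM in pro-HSC/HPC, against 10.8, 0.916 and 1.41 CPM in E9.5 HE. It had 1.51, 4.19 and 318 CPM in pre-HSC I, against 2.63, 1.03 and 3.99 CPM in E10.5 HE. The same 3 libraries were the highest for each of the 3 globins, and pro-HSC/HPC replicate 1 had less Hbb-bh1 and Hba-x than any E9.5 HE library. Over the 28 libraries log2(CPM + 1) of Hbb-bh1 and Hba-x correlated at r = 0.986, and over the 25 without the rich libraries at 0.857, libraries that share their scaling and their depth range.

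**Figure D1:**
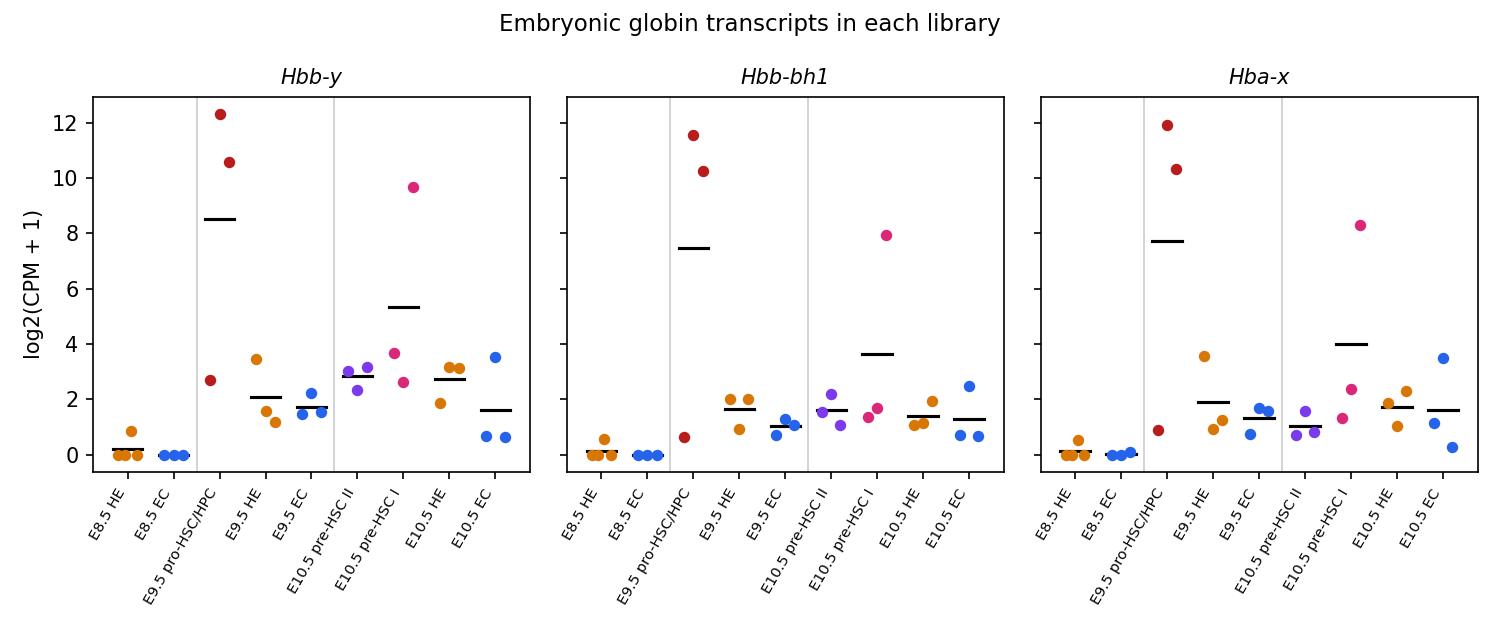
Levels of Hbb-y, Hbb-bh1 and Hba-x in each of the 28 libraries (points, log2(CPM + 1)) by population, with bars at the mean of the log values. A pair of pro-HSC/HPC libraries and 1 pre-HSC I library lie far above all others, while the E8.5 libraries lie at or near 0.

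In pro-HSC/HPC against E9.5 HE, 3 of the 9 genes rose and none fell by edgeR's quasi-likelihood test with Benjamini-Hochberg adjustment over all genes, where 0.656% of all genes tested were called and 0.505% rose. These were Hbb-y (log2 fold change 8.98 ± 1.97 SE, adjusted p = 0.0248), Hbb-bh1 (9.24 ± 1.96, adjusted p = 0.0193) and Hba-x (8.62 ± 1.97, adjusted p = 0.0305), each higher in 2 of the 3 pro-HSC/HPC libraries than in any HE library. Without the 3 rich libraries, which leaves 1 pro-HSC/HPC library that is assumed to vary like the others, the log2 fold changes were 0.32 for Hbb-y, -2.04 for Hbb-bh1 and -2.34 for Hba-x, each with an adjusted p of 1. With the replicate number as a block shared by all days, none of the 3 passed (adjusted p = 0.0952, 0.0503 and 0.144 for Hbb-y, Hbb-bh1 and Hba-x). Libraries of the same number paired at E9.5 but not between days. With a block within each day none of the 3 passed either (adjusted p = 0.155, 0.210 and 0.336). The calls also ended when any 1 of the 3 E9.5 HE libraries or pro-HSC/HPC replicate 2 was left out (adjusted p from 0.0646 to 0.218).

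In pre-HSC I against E10.5 HE, 3 of the 9 genes rose, where 6.88% of all genes tested were called and 3.08% rose. These were Hbb-y (log2 fold change 5.50 ± 1.70, adjusted p = 0.0499), Hbb-bh1 (5.59 ± 1.70, adjusted p = 0.0464) and Car2, described among the enzymes. Hba-x had a log2 fold change of 5.39 ± 1.73 with an adjusted p of 0.0584 by edgeR, while DESeq2 called it (adjusted p = 0.0321). Both globin calls rested on pre-HSC I replicate 3, without which the log2 fold changes were 0.48 for Hbb-y (adjusted p = 0.927), 0.14 for Hbb-bh1 (adjusted p = 1) and 0.16 for Hba-x (adjusted p = 1). They also ended without any 1 of the E10.5 HE libraries (adjusted p from 0.119 to 0.157), and that of Hbb-y ended in edgeR with DESeq2 size factors (adjusted p = 0.0505). With a replicate block, shared by all days or within each day, the globin calls ended too, although same-numbered E10.5 libraries correlated unevenly.

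In pre-HSC II against pre-HSC I, Hba-x fell (log2 fold change -6.56 ± 1.85, adjusted p = 0.0372), the only one of the 9 genes called, where 4.42% of all genes tested were called and 4.28% fell. Its levels in pre-HSC II were 0.651, 1.99 and 0.766 CPM, and only pre-HSC I replicate 3 lay far above them. Without that library the log2 fold change was -1.32 (adjusted p = 0.943), and the call also ended without any 1 of the pre-HSC II libraries, while without pre-HSC I replicate 1 or 2 all 3 globins were called. Hbb-y (log2 fold change -5.43 ± 1.69, adjusted p = 0.0747) and Hbb-bh1 (-5.21 ± 1.66, adjusted p = 0.0864) did not pass. In pre-HSC I against pro-HSC/HPC 0 of the 9 genes passed the edgeR test, where 1.45% of all genes tested did. In that comparison 4 of the 9 had an unadjusted p under 0.05 and DESeq2 called 0, while without pre-HSC I replicate 3 edgeR called the 3 globins.

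At E8.5 the embryonic globins were at or near the limit of detection. The 4 E8.5 HE libraries held 0, 0, 36 and 0 counts of the 3 globins together, and the 3 E8.5 EC libraries held 0, 0 and 1. A count of 0 allows a level of up to 3 counts, which is 0.121 CPM in E8.5 EC replicate 1. In E9.5 EC, Hbb-y had 1.75, 3.67 and 1.88 CPM, against 0 counts in all 3 E8.5 EC libraries. This is at least 53.6-fold higher, with the floor set at 3 counts over the group. For Hbb-bh1 the bound was at least 23.3-fold, and for Hba-x, with 113 counts in E9.5 EC and 1 count in E8.5 EC, the ratio was 107 (95% counting interval 18.8 to 4260). The groups did not overlap for any of the 3 globins, nor for Car2, which was lower at E9.5. Differences were common there, with 5073 of the 15238 genes tested at an unadjusted p under 0.05 by edgeR. How many of all genes had groups without overlap was not counted, here or in the other comparisons. None of the 9 genes passed the edgeR test between these groups, where 19.7% of all genes tested did. Hbb-y was the only one of the 9 with an unadjusted p under 0.05 (adjusted p = 0.110), and DESeq2 called all 3 globins. Without E8.5 EC replicate 3, edgeR called 1 of the 9 genes, Blvrb.

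The same held between HE populations of neighbouring days. Hbb-y had 9.92, 2.01 and 1.27 CPM in E9.5 HE, against 0, 0, 0.808 and 0 CPM in E8.5 HE, and again the groups did not overlap. Its log2 fold change of 4.54 ± 1.86 did not pass the test (adjusted p = 0.137), and neither did those of Hbb-bh1 (4.37 ± 2.02, adjusted p = 0.190) and Hba-x (5.43 ± 2.06, adjusted p = 0.106). DESeq2 called Hba-x. Car2, described among the enzymes, was the 1 gene of the 9 called by edgeR in this comparison, where 6.54% of all genes tested were called and 3.58% fell. Between E10.5 EC and E9.5 EC 0 of the 9 genes passed by edgeR or DESeq2 and 0 had an unadjusted p under 0.05, while 0.761% of all genes tested were called by edgeR.

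The neighbouring populations in order of mean level overlapped at nearly every step. Mean Hbb-y was 2226 ± 2645 CPM over the pro-HSC/HPC libraries and 277 ± 465 CPM over those of pre-HSC I (SD, n = 3 each). It was 6.41 ± 2.09 CPM in pre-HSC II, 6.13 ± 3.01 CPM in E10.5 HE, 4.40 ± 4.80 CPM in E9.5 HE, 3.93 ± 5.81 CPM in E10.5 EC and 2.43 ± 1.07 CPM in E9.5 EC (SD, n = 3 each). It was 0.202 ± 0.404 CPM in E8.5 HE (SD, n = 4) and 0 in E8.5 EC. The one step without overlap, for Hbb-y as for Hbb-bh1, lay between E9.5 EC and E8.5 HE. For Hba-x it lay between pre-HSC II (1.14 ± 0.744 CPM, SD, n = 3) and E8.5 HE (0.107 ± 0.214 CPM, SD, n = 4).

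The rich libraries all held both embryonic beta-like chains, with more counts of Hbb-y, and differed in the share of each. Hbb-y made up 63.0% of the Hbb-y and Hbb-bh1 counts in pro-HSC/HPC replicate 2 (95% Wilson interval 62.8 to 63.2%) and 55.7% in replicate 3 (55.4 to 56.1%). In pre-HSC I replicate 3 it made up 76.9% (76.4 to 77.4%), above both. With 1 rich library at E10.5 this compares libraries and not stages, and intervals cover counting error only. The libraries with few globin counts spread more widely, with 90.7% in pro-HSC/HPC replicate 1 (85.3 to 94.3%) and 29.3% in E9.5 HE replicate 3 (21.0 to 39.3%), so the shares of pro-HSC/HPC, 55.7 to 90.7%, overlapped those of pre-HSC I, 70.1 to 88.4%. Per length of transcript, the ratio of Hba-x to the sum of the 2 beta-like chains was 0.484 in both rich pro-HSC/HPC libraries. It was 0.309 in the rich pre-HSC I library.

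**Figure D2:**
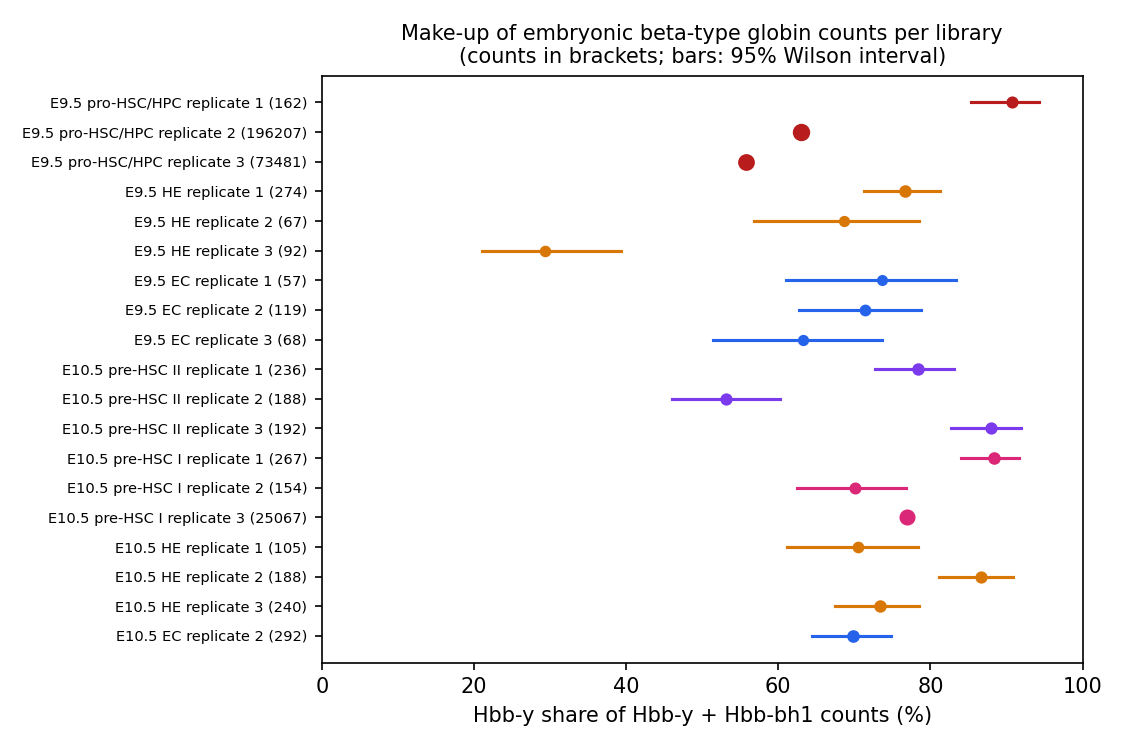
Hbb-y as a percentage of Hbb-y and Hbb-bh1 counts in the libraries with at least 50 such counts, by population, with 95% Wilson intervals. The rich libraries have narrow intervals at 63.0% and 55.7% (pro-HSC/HPC) and at 76.9% (pre-HSC I), while libraries with few counts spread from 29.3 to 90.7%.

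The adult globins were not measured by this table in a way that can be read. Hba-a1, Hba-a2, Hbb-b1, Hbb-b2, Hbb-bs and Hbb-bt were listed at 0 counts in every library, and 98.6 to 100% of the exon bases of each overlap the row of a partner gene. The sources used here do not say how reads that match 2 genes were counted. Embryonic globins are free of this: 0% of the 50-base windows of the Hbb-y, Hbb-bh1 and Hba-x transcripts occur in another gene's transcript (GENCODE M21), and 0% of their exon bases overlap another row. Hbq1b, a theta-like globin, had 91 and 20 counts in the rich pro-HSC/HPC libraries, and pre-HSC I replicate 3 had 27.

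Alas2 (mm9 chrX:146981960-147005165, plus strand, 11 exons), which starts erythroid heme synthesis, was highest in the same 3 libraries. It had 2.43, 31.8 and 10.2 CPM in pro-HSC/HPC, against 0.472, 0.567 and 1.73 CPM in E9.5 HE. The 2 groups did not overlap, but the log2 fold change of 3.99 ± 1.12 did not pass by edgeR (adjusted p = 0.126), while DESeq2 called it. Without the 3 rich libraries it was 1.39 (adjusted p = 1). In pre-HSC I it had 0.252, 1.33 and 15.1 CPM, against 0.900, 2.41 and 1.58 CPM in E10.5 HE, which overlap (log2 fold change 1.77 ± 1.02, adjusted p = 0.336, and -1.03 without the rich libraries, adjusted p = 0.691). In all other libraries it ran from 0.252 to 4.38 CPM. This low level cannot be ascribed to Alas2 alone, since 13.8% of the 50-base windows of its transcript also occur in transcripts of the neighbouring genes Apex2 and Mir3620, and Apex2 ran from 7.88 to 60.9 CPM.

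Slc4a1 (mm9 chr11:102210134-102226595, minus strand, 20 exons), the band 3 anion exchanger of the red cell membrane, was at 0 counts in 22 of the 28 libraries. It had 0, 167 and 65 counts in pro-HSC/HPC, against 60, 0 and 1 counts in E9.5 HE. The third of the 3 globin-rich libraries, pre-HSC I replicate 3, had 0 counts. The E9.5 HE library with 60 counts of Slc4a1 held only 503 counts of the embryonic globins. The difference between pro-HSC/HPC and E9.5 HE did not pass the test (log2 fold change 1.70 ± 2.11, adjusted p = 1). In E9.5 HE against E9.5 EC, where Slc4a1 was at 0 in all 3 EC libraries, the summed counts were at least 21.8-fold higher, all but 1 of the 61 counts lying in HE replicate 1 (adjusted p = 0.619).

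Klf1 (mm9 chr8:87425827-87429194, plus strand, 3 exons), the transcription factor that activates globin and other erythroid genes, was rare throughout. It had 3, 65 and 63 counts in pro-HSC/HPC, against 0, 0 and 1 counts in E9.5 HE, which at equal depth is a ratio of 110 (counting interval at 95%, 19.5 to 4390). The 2 groups did not overlap, and the edgeR test did not pass (adjusted p = 0.584). Nearly all of these counts lay in the 2 rich libraries, without which the log2 fold change was 2.49 (adjusted p = 1), compared with 6.37 over all libraries. Elsewhere it had 14 counts in E8.5 EC replicate 2, 20 in E10.5 HE replicate 3, 9 in pre-HSC II replicate 2, and 0 to 3 in every other library. Pre-HSC I replicate 3, rich in globin, had 2.

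Set against the globin counts of the same library, the other erythroid genes were not in 1 ratio across the rich libraries. Per 10000 embryonic globin counts, Slc4a1 had 5.78 (95% counting interval 4.94 to 6.73) and 6.01 (4.64 to 7.66) in the rich pro-HSC/HPC libraries. It had 0 in pre-HSC I replicate 3, where a count of 0 allows up to 0.920. Klf1 had 2.25 (1.74 to 2.87) and 5.83 (4.48 to 7.45) in the same pro-HSC/HPC libraries and 0.614 (0.0743 to 2.22) in pre-HSC I replicate 3. Alas2 ran the other way, with 26.4 (24.5 to 28.3) and 25.3 (22.4 to 28.5) in these pro-HSC/HPC libraries, against 110 (98.5 to 122) in pre-HSC I replicate 3. Gata1, the factor that works beside Klf1, had 7.72 and 13.6 in these pro-HSC/HPC libraries and 31.6 in pre-HSC I replicate 3. The pre-HSC I libraries poor in globin had more Gata1 (6.26 and 7.19 CPM) than replicate 3 (4.35 CPM). Its ratio there is thus not a measure of globin-bearing cells alone. The E9.5 HE library with Slc4a1 counts had 1190 (910 to 1540) per 10000, with 0 counts of Klf1, Gata1 and Hemgn. Pre-HSC I replicate 3 differed from the 2 rich pro-HSC/HPC libraries in Slc4a1 and Alas2 by more than counting error, with 1 library on that side.

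**Figure D3:**
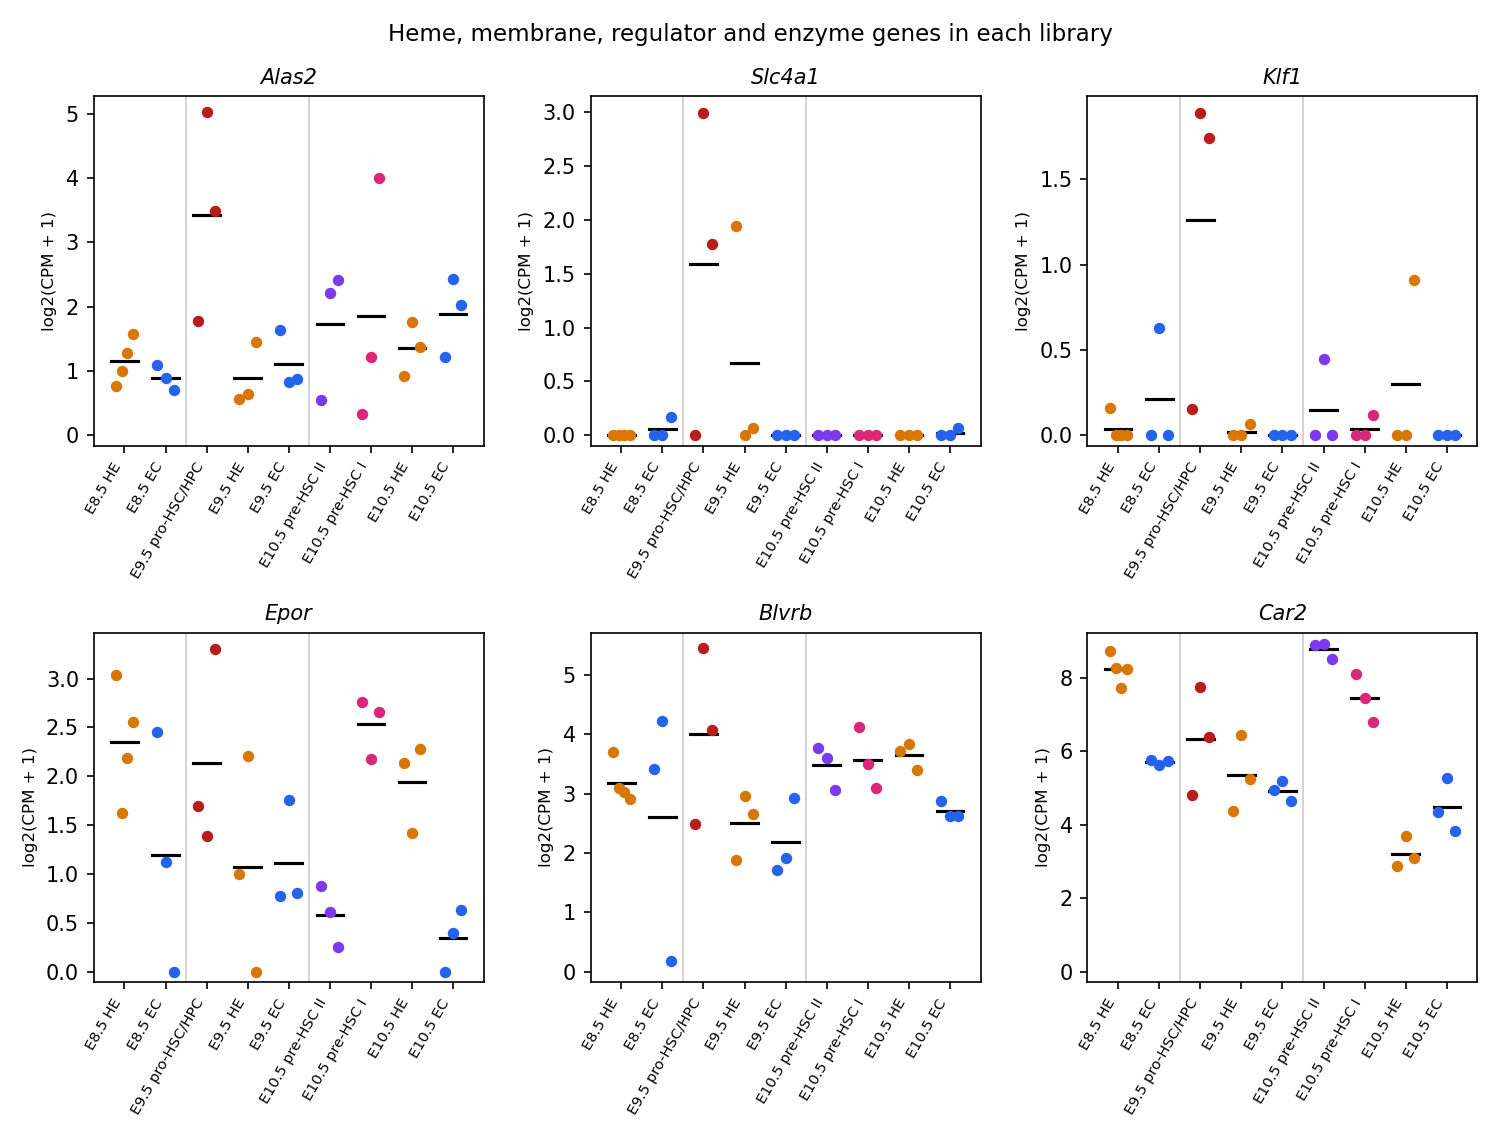
Levels of Alas2, Slc4a1, Klf1, Epor, Blvrb and Car2 in each of the 28 libraries (points, log2(CPM + 1)) by population, with bars at the mean of the log values. Alas2 is highest in the 3 globin-rich libraries, Slc4a1 in 2 of these and in 1 E9.5 HE library, and Epor, Blvrb and Car2 are spread over most populations.

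Epor (mm9 chr9:21763343-21768020, minus strand, 8 exons), the erythropoietin receptor, did not follow the globins. Its mean was highest in pre-HSC I (4.86 ± 1.18 CPM, SD, n = 3), E8.5 HE (4.43 ± 2.17 CPM, SD, n = 4) and pro-HSC/HPC (4.25 ± 4.02 CPM, SD, n = 3). It was lowest in pre-HSC II (0.521 ± 0.325 CPM) and E10.5 EC (0.289 ± 0.277 CPM, SD, n = 3 each). Every neighbouring pair in the order overlapped. Epor had 3.39, 1.67 and 3.86 CPM in E10.5 HE, against 0, 0.313 and 0.553 CPM in E10.5 EC. These groups did not overlap, yet the log2 fold change of 3.36 ± 1.36 did not pass (adjusted p = 0.209). In pre-HSC II it had 0.842, 0.529 and 0.192 CPM, against 5.76, 3.52 and 5.32 CPM in pre-HSC I, which again did not overlap (log2 fold change -3.20 ± 1.33, adjusted p = 0.280). None of the 11 comparisons called Epor in the edgeR fit of all libraries, but a fit of only pre-HSC II and pre-HSC I did (-3.21, adjusted p = 0.0446).

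Car2 (mm9 chr3:14886426-14900770, plus strand, 7 exons), which encodes carbonic anhydrase 2, had counts in every library and was the only one of the 9 genes called in comparisons without a globin-rich library. At E8.5 it had 420, 308, 211 and 303 CPM in HE, against 52.7, 48.1 and 52.1 CPM in EC. All HE libraries lay above all EC libraries, and Car2 rose with a log2 fold change of 2.61 ± 0.52 (adjusted p = 0.00231). It was the only one of the 9 genes called there, where 6.81% of all genes tested were called and 5.08% rose. Its call held without each E8.5 library in turn, with log2 fold changes of 2.43 to 2.76.

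At E9.5 the levels of Car2 in the 2 endothelial populations overlapped, with 19.7, 85.2 and 36.6 CPM in HE, against 29.6, 35.4 and 23.8 CPM in EC (log2 fold change 0.67 ± 0.52, adjusted p = 1). None of the 9 genes passed the edgeR test in that comparison, where 0.302% of all genes tested did. 1 of the 9 had an unadjusted p under 0.05, and DESeq2 called 0. At E10.5 Car2 had 6.27, 12.0 and 7.46 CPM in HE, against 19.4, 37.6 and 13.2 CPM in EC, so that every HE library lay below every EC library. The log2 fold change of -1.45 ± 0.53 did not pass (adjusted p = 0.152). None of the 9 genes passed by edgeR at E10.5, where 3.48% of all genes tested did. In that comparison 3 of the 9 had an unadjusted p under 0.05, and DESeq2 called 0.

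The difference between HE and EC in Car2 changed between E8.5 and E10.5, where day and tissue taken cannot be told apart. The step from EC to HE was lower at E10.5 than at E8.5 by a log2 value of 4.06 (difference of differences -4.06 ± 0.74, adjusted p = 0.00148), where 2.99% of all genes tested were called, 2.11% of all genes with a lower step at E10.5, and Car2 was the only one of the 9 genes among them. From E8.5 to E9.5 the step changed by -1.93 ± 0.71, which did not pass (adjusted p = 0.321), in a test that called 0 of the 9 genes and 0.847% of all genes. There 2 of the 9 had an unadjusted p under 0.05, DESeq2 called 0, and with the block within each day Car2 passed (-2.24, adjusted p = 0.0363).

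Within HE, Car2 was lower at each later day, and at E10.5 the tissue taken differed as well. It had 19.7, 85.2 and 36.6 CPM in E9.5 HE, against 420, 308, 211 and 303 CPM in E8.5 HE, with no overlap (log2 fold change -2.72 ± 0.53, adjusted p = 0.00318). It had 6.27, 12.0 and 7.46 CPM in E10.5 HE, below all 3 E9.5 HE libraries (log2 fold change -2.46 ± 0.55, adjusted p = 0.00972). Car2 was the only one of the 9 genes called there, where 3.64% of all genes tested were called and 2.15% fell. This call ended without E9.5 HE replicate 2, the highest of its group (log2 fold change -1.72, adjusted p = 0.0871), and without E10.5 HE replicate 3 (-2.37, adjusted p = 0.0569). In EC the change at E9.5 against E8.5 did not pass (log2 fold change -0.78 ± 0.52, adjusted p = 0.298).

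In the blood-forming populations Car2 was high at E10.5. It had 275, 174 and 109 CPM in pre-HSC I, against 6.27, 12.0 and 7.46 CPM in E10.5 HE, and rose with a log2 fold change of 4.44 ± 0.59 (adjusted p = 3.57e-05). Without the 3 globin-rich libraries it was as large (4.72, adjusted p = 2.53e-06), and within pre-HSC I the globin-rich library had the lowest Car2 level. Pre-HSC II had 472, 483 and 366 CPM, above every pre-HSC I library, but the log2 fold change of 1.24 ± 0.52 did not pass (adjusted p = 0.286). At E9.5 Car2 had 27.0, 215 and 83.1 CPM in pro-HSC/HPC, against 19.7, 85.2 and 36.6 CPM in HE. The groups overlap, although within each pair of the same number the pro-HSC/HPC library was the higher (log2 fold change 1.20 ± 0.52, adjusted p = 0.605, and 0.498 with a replicate block). The rise of Car2 from HE to the blood population was 3.25 ± 0.75 greater on the log2 scale at E10.5 than at E9.5, and this difference did not pass (adjusted p = 0.0736). That test called 0 of the 9 genes and 0.0722% of all genes, with 2 of the 9 at an unadjusted p under 0.05. DESeq2 called Car2 in it (3.26, adjusted p = 0.00790), and so did edgeR without pro-HSC/HPC replicate 2 (4.23, adjusted p = 0.0133).

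**Figure D4:**
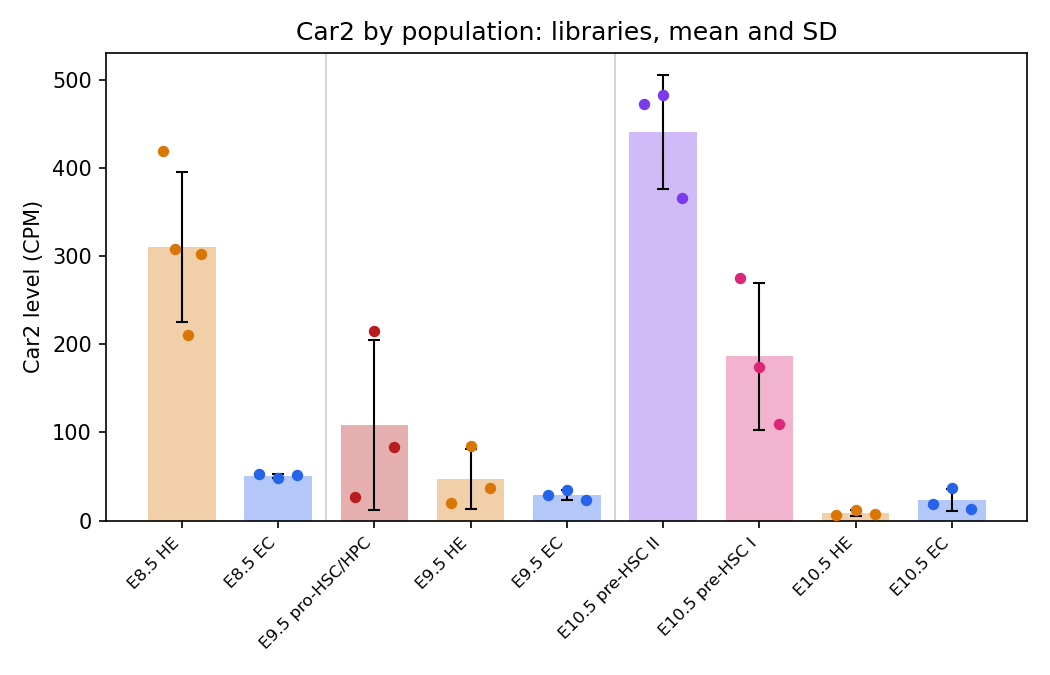
Car2 level in CPM (linear axis) in each of the 28 libraries by population, with the mean and SD of each. HE lies above EC at E8.5 and below it at E10.5, where pre-HSC I and pre-HSC II lie at 109 to 483 CPM and HE at 6.27 to 12.0 CPM.

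Over the 9 populations the order of mean Car2 was pre-HSC II (440 ± 64.5 CPM), E8.5 HE (310 ± 85.4 CPM, n = 4), pre-HSC I (186 ± 83.6 CPM), pro-HSC/HPC (108 ± 96.5 CPM), E8.5 EC (51.0 ± 2.52 CPM), E9.5 HE (47.2 ± 34.0 CPM), E9.5 EC (29.6 ± 5.76 CPM), E10.5 EC (23.4 ± 12.7 CPM) and E10.5 HE (8.57 ± 3.02 CPM), with SDs over 3 libraries unless stated. The last neighbours, E10.5 EC and E10.5 HE, are the only pair in this order whose libraries did not overlap. Over all populations pooled, r of log2(CPM + 1) between Car2 and Hbb-y was 0.116 over the 28 libraries and -0.103 without the 3 rich ones. Within populations the relation differed. In pro-HSC/HPC the globin-rich libraries had the higher Car2 levels, 215 and 83.1 CPM against 27.0 CPM. In pre-HSC I the globin-rich library had the lowest, 109 CPM.

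Blvrb (mm9 chr7:28232997-28251000, plus strand, 6 exons), a reductase of heme breakdown products, had 4.64, 42.7 and 15.8 CPM in pro-HSC/HPC, against 2.69, 6.81 and 5.34 CPM in E9.5 HE. Both globin-rich libraries lay above the HE range and the other lay inside it (log2 fold change 2.09 ± 0.81, adjusted p = 0.470, and -0.09 without the rich libraries, adjusted p = 1). In E10.5 HE it had 12.2, 13.3 and 9.61 CPM, against 6.36, 5.17 and 5.18 CPM in E10.5 EC, with no overlap (log2 fold change 1.07 ± 0.79, adjusted p = 0.568). In pre-HSC I it had 16.4, 10.3 and 7.51 CPM, and there the globin-rich library was the lowest. E8.5 EC replicate 3 had 0.125 CPM of Blvrb and 0 counts of Epor, while its Car2 level of 52.1 CPM lay between those of the other E8.5 EC libraries.

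Per length, the 3 globins stood far above the other members in the rich libraries. In pro-HSC/HPC replicate 2 the levels in RPKM, which are CPM divided by transcript length in kilobases, were 8323 for Hbb-y, 6433 for Hba-x and 4958 for Hbb-bh1. In the same library they were 120 for Car2, 42.8 for Blvrb, 16.1 for Alas2, 1.77 for Klf1, 1.53 for Slc4a1 and 0.889 for Epor. Per length, each globin lay above every other member in this library, and Klf1, Slc4a1 and Epor were the lowest. In pre-HSC II replicate 2, a library low in globins, Car2 had 270 RPKM and Hbb-y 6.57 RPKM.

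Other genes of red cell formation were read from lists of the pathway. In pro-HSC/HPC against E9.5 HE, 4 of 16 erythroid transcription factors rose and 0 fell, where 0.505% of all genes tested rose. Their median log2 fold change was 0.81 against 0.02 over all genes tested. The factors that rose are named next. They were Nfe2, Gfi1b, Myb and Ikzf1. Myb, a factor of progenitor cells, had a mean of 43.0 ± 6.15 CPM in pro-HSC/HPC, against 0.536 ± 0.570 CPM in HE (log2 fold change 6.29 ± 0.86, adjusted p = 0.000110). Gfi1b, a repressor needed for red cells and megakaryocytes, had 22.2 ± 14.6 CPM, against 0.0447 ± 0.0437 CPM (adjusted p = 0.000953). Nfe2, known for megakaryocytes as well as globin control, had 12.9 ± 2.47 CPM in pro-HSC/HPC, against 0.0303 ± 0.0263 CPM in HE (adjusted p = 0.00527). Without the rich libraries 1 of the 16 passed, Myb (6.17, adjusted p = 0.00450), while Gfi1b (7.07, adjusted p = 0.0644) and Nfe2 (8.15, adjusted p = 0.0949) did not.

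In the same comparison 0 of 8 heme synthesis genes, 0 of 8 iron genes, 0 of 4 heme export and breakdown genes, 0 of 15 red cell membrane genes and 0 of 11 Epo signalling genes passed the test. The membrane list had the highest median log2 fold change among those of more than 1 tested gene, at 1.99, and that of heme synthesis was 0.53. Without the rich libraries these medians were -0.32 and 0.00. Among 11 red cell enzymes and terminal genes 1 rose, Hemgn, a nuclear protein of blood progenitors and red cells. It had 0.524, 15.9 and 7.09 CPM in pro-HSC/HPC, highest in the 2 globin-rich libraries, and 0 counts in all HE libraries (adjusted p = 0.0111). Without the rich libraries it did not pass (adjusted p = 0.814). None of 13 other carbonic anhydrase genes passed.

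In pre-HSC I against E10.5 HE, where 3.08% of all genes tested rose, 4 of 16 erythroid transcription factors rose, with a median log2 fold change of 0.66 against 0.01 over all genes tested. They were Gata1, Gfi1b, Myb and Ikzf1. Without the rich libraries 4 of the 16 passed as well. Gata1 had 6.26, 7.19 and 4.35 CPM in the 3 pre-HSC I libraries, lowest in the globin-rich one. In pro-HSC/HPC it had 0, 9.29 and 5.46 CPM, with counts in the 2 globin-rich libraries alone. Among the membrane genes Epb4.1, which encodes protein 4.1 of the red cell skeleton, rose (72.6 ± 27.4 CPM in pre-HSC I, against 31.9 ± 3.33 CPM in HE, log2 fold change 1.19 ± 0.28, adjusted p = 0.00909). Of 8 heme synthesis genes 1 fell and 0 rose. It was Alas1, the widely expressed counterpart of Alas2, with 26.4 ± 6.09 CPM in pre-HSC I, against 64.3 ± 6.63 CPM in HE (log2 fold change -1.28 ± 0.32, adjusted p = 0.0138). Hmox1, the heme oxygenase, fell to 13.4 ± 7.52 CPM in pre-HSC I, against 38.5 ± 13.5 CPM in HE (log2 fold change -1.53 ± 0.35, adjusted p = 0.00645), 1 of 4 genes of heme export and breakdown. By edgeR 1 of 11 Epo signalling genes also rose, Fam132b (1.295 ± 1.488 CPM in pre-HSC I, against 0 CPM in HE, adjusted p = 0.0378). Of 11 red cell enzymes and terminal genes 2 rose, Hemgn (log2 fold change 6.02 ± 1.58, adjusted p = 0.0267) and Gpx1 (1.00 ± 0.31, adjusted p = 0.0459). Without the rich libraries Epb4.1 (0.88, adjusted p = 0.107), Alas1 (-1.10, adjusted p = 0.0844) and Hmox1 (-1.18, adjusted p = 0.0554) did not pass. In that fit 1 of 11 Epo signalling genes and 1 of 13 red cell enzymes and terminal genes passed.

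At E8.5, where Car2 was the only member called, 2 of 11 Epo signalling genes rose in HE against EC and 0 fell. Of all genes tested 6.81% were called there and 5.08% rose. Lyn, a kinase downstream of several blood cell receptors, had 77.1 ± 18.1 CPM in HE, against 12.1 ± 6.29 CPM in EC (log2 fold change 2.68 ± 0.27, adjusted p = 3.5e-07). Jak2, the kinase bound to Epor, had 25.4 ± 8.59 CPM, against 4.16 ± 3.30 CPM in EC (log2 fold change 2.59 ± 0.45, adjusted p = 0.000524). Tfrc, the transferrin receptor for iron uptake, fell to 26.8 ± 8.19 CPM in HE, against 97.1 ± 6.39 CPM in EC (log2 fold change -1.86 ± 0.29, adjusted p = 0.000175), 1 of 8 iron genes. The steps of Lyn and Jak2 from EC to HE were lower at E10.5 than at E8.5 (difference of differences -3.22 ± 0.37, adjusted p = 4.5e-06, and -2.29 ± 0.62, adjusted p = 0.0384). Lyn had 72.9 ± 6.15 CPM in E10.5 HE, near its E8.5 HE level, against 106.4 ± 21.25 CPM in E10.5 EC. Jak2 had 25.6 ± 3.63 CPM in E10.5 HE, against 20.7 ± 8.07 CPM in E10.5 EC. In EC both were already higher at E9.5 than at E8.5 (Lyn 2.82 ± 0.28, adjusted p = 1.6e-07, Jak2 2.39 ± 0.46, adjusted p = 0.000787). The steps were lower at E9.5 too (-2.60, adjusted p = 0.000252, and -2.49, adjusted p = 0.0493). Among 13 other carbonic anhydrases 0 passed at E8.5.

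At E10.5 in HE against EC, Alad of heme synthesis fell to 50.5 ± 18.9 CPM in HE, against 171 ± 87.6 CPM in EC (log2 fold change -1.76 ± 0.45, adjusted p = 0.0269), 1 of 8 genes. Of 16 erythroid transcription factors 4 rose there, Cbfa2t3, Bcl11a, Sox6 and Myb, where 3.48% of all genes tested were called. Between days, Urod of heme synthesis (1 of 8 genes) and Hmox1 (1 of 4 of its list) fell both in EC and in HE from E8.5 to E9.5. Of all genes tested 19.7% were called between these days in EC and 6.54% in HE, so these counts do not set the lists apart in EC. Hmox1 had 24.6 ± 7.71 CPM in E9.5 HE, against 73.7 ± 14.2 CPM in E8.5 HE (n = 3 and 4), with a log2 fold change of -1.58 ± 0.33 (adjusted p = 0.00569).

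By likeness of log2(CPM + 1) over the 28 libraries, the 5 genes closest to the mean of the 3 globins were Thbs1 (r = 0.816), Rabgap1l (0.695), F2rl2 (0.694), Ston2 (0.647) and P2ry1 (0.646). Without the 3 rich libraries these were 0.446, 0.638, 0.240, 0.111 and 0.495. For Klf1 they were Hbb-bh1 (0.795), Hba-x (0.769), Hbb-y (0.721), F2rl2 (0.581) and Pf4 (0.575), which fell to between -0.174 and 0.190 without the rich libraries. For Car2 they were Bin2 (0.838), Gmfg (0.808), Apoc1 (0.775), Itga2b (0.773) and Ncoa4 (0.772), and without the rich libraries these stayed between 0.766 and 0.848. For Epor they were Gsta4 (0.682), Wdr45 (0.670), Atp6v0e2 (0.660), Unc50 (0.619) and Hexa (0.605).

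Markers of other blood cells differed between the populations too. The 12 megakaryocyte and platelet markers summed to 301, 520 and 920 CPM in pro-HSC/HPC, against 260, 151 and 212 CPM in E9.5 HE, and all 12 had counts in the 2 rich libraries, against 10 in the other. In pre-HSC I they summed to 395, 515 and 519 CPM, against 428 to 505 CPM in E10.5 HE, which overlap, and Gp6 was at 0 in both. The 10 granulocyte and macrophage markers summed to 35.3 to 70.8 CPM in pro-HSC/HPC, against 6.75 to 8.79 CPM in E9.5 HE, with Ctsg and Emr1 at 0 in pro-HSC/HPC. They summed to 121 to 199 CPM in pre-HSC I, against 5.45 to 14.3 CPM in E10.5 HE. Mesenchyme markers summed to 205 to 308 CPM in pro-HSC/HPC, against 110 to 228 CPM in E9.5 HE. The part of these cells in the globin results was not tested.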

How the data were processed

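Per the labels' protocols, 100 cells were sorted into lysis buffer for each library and polyadenylated RNA was amplified (SMARTer Ultra Low Input kit). The authors deposited a table of raw counts per gene, and the submitters' processing notes name TopHat, SAMtools, Subread, featureCounts 1.6.2 and the build mm9. The sources used here give neither the strand setting nor the treatment of reads with several matches. Amplified reads without molecular identifiers are not independent molecules, so intervals and limits cover counting error only.

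Counts were fitted with edgeR 4.0.16 in R 4.3.3 (quasi-likelihood test, TMM scaling, filterByExpr with a minimum count of 10) in 1 model of all 28 libraries with a term for each of 9 populations. It gave 11 comparisons and 3 differences of differences, with Benjamini-Hochberg adjustment over all 15238 genes and a threshold of 0.05. RPKM used the deposited gene lengths. The code was tested on simulated data. Alternatives included DESeq2 1.42.0, other filters and scalings, and leaving out libraries. No libraries of the same population were duplicates (chi-square per degree of freedom at least 38.5), and pairs from different populations were not checked.

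Deviations of same-numbered libraries correlated at over 0.1 in every pair for HE and EC at E8.5 (0.174 to 0.215) and E9.5 (0.105 to 0.279) and for pro-HSC/HPC and HE (0.135 to 0.344), so the numbers were taken to pair libraries there. The block within each day was chosen after seeing the data. The genes and lists were chosen with earlier results of these data known. From each pathway list in each comparison, up to 3 called genes with the smallest p could be named. Likeness was ranked among genes averaging 5 CPM or more. Some genes of the red cell membrane list are not reported here.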

Additional observations from a re-analysis of the deposited data

Results flagged for a closer look

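Among the 4 E8.5 HE libraries, replicate 3 stood apart in the embryonic globins, with 0.808 CPM of Hbb-y, 0.475 CPM of Hbb-bh1 and 0.428 CPM of Hba-x, against 0 counts in the other 3. Replicate 1 had 3 counts of Klf1 (0.116 CPM), against 0 counts in the others, which met the same measure but is no more than a count of 0 allows. The measure, the largest gap at either end over the range, sets apart any group in which 3 libraries are at 0 and 1 is not. It was applied only to groups of 4, and E8.5 HE is the only such group. These flags therefore say no more than the counts, and the 3 globin values come from 1 library.

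The step of Car2 from EC to HE differed by -4.06 on the log2 scale at E10.5 against E8.5 in the test of the difference itself. Day and tissue taken cannot be told apart in it.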

How the results depend on the processing

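Car2 kept its direction and its call in HE against EC at E8.5, in pre-HSC I against E10.5 HE, in E9.5 HE against E8.5 HE and in the difference of HE and EC steps at E10.5 against E8.5, under every alternative run, leaving out each library included. The globin calls did not. In pro-HSC/HPC against HE, 3 of the 9 genes were called, and 0 with a replicate block, with a replicate block within each day or without the 3 rich libraries, where Hbb-bh1 (-2.04) and Hba-x (-2.34) reversed. Leaving out single libraries gave 0 to 3. In pre-HSC I against HE, 3 were called, with 4 (Hba-x added) by DESeq2, with no filter, with at least 10 CPM in 3 libraries or in a fit of only these populations, 2 with DESeq2 size factors (Hbb-y lost), and 1 with either replicate block or without the rich libraries, with 1 to 4 when single libraries were left out. In pre-HSC II against pre-HSC I, 1 was called. There were 3 by DESeq2, with no filter or with at least 10 CPM in 3 libraries, 2 in a fit of only the populations compared (Epor added), and 0 with a replicate block or without the rich libraries. Leaving out single libraries gave 0 to 3. Hbb-bh1 reversed there to 0.23 without the rich libraries and 0.24 without pre-HSC I replicate 3, in a range of -5.79 to 0.24 over single libraries left out. With the block within each day Car2 was called in its place (1.28, adjusted p = 0.0490 by edgeR).

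In E9.5 EC against E8.5 EC, 0 were called by edgeR, 3 by DESeq2, 1 with no filter, 3 without the rich libraries, 3 in a fit of only the populations compared and 0 to 1 without single libraries. In E9.5 HE against E8.5 HE, 1 was called, 2 by DESeq2 and 3 with no filter or without the rich libraries. Leaving out single libraries gave 0 to 1 in E10.5 HE against E9.5 HE and 0 to 3 in pre-HSC I against pro-HSC/HPC. A replicate block within each day gave 1 (Car2) in HE against EC at E10.5 (-1.38, adjusted p = 0.0358 by edgeR) and 1 in the difference of HE and EC steps at E9.5 against E8.5. In the difference of steps from HE to blood, 0 were called, and 1 (Car2) by DESeq2, with no filter, with at least 10 CPM in 3 libraries, with either replicate block or without the rich libraries, and 0 to 1 without single libraries. The causes were not tested.

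Same-numbered libraries correlated unevenly in the E10.5 pairs (0.0385 to 0.396), all above 0 but not all over 0.1. Libraries of different numbers were not compared, so whether the E10.5 libraries pair was not settled. Between days the same-numbered libraries correlated at -0.165 to 0.232 and were taken to share only a number. Between HE and EC at E8.5 and E9.5 a replicate block changed no call among the 9 genes. Of 81 population levels, 80 stayed within 1 SD on raw totals. Over all genes, DESeq2 called 1698 in HE against EC at E8.5, where edgeR called 1038, and a fit of only those populations called 191. In pro-HSC/HPC against HE these were 218, 100 and 201. At these depths a count of 0 leaves levels under about 0.1 CPM unseen.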
